A study of Mus musculus with 5 samples.

Results

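The genes described here encode the proteins of the mitochondrial ribosome, named Mrpl (large subunit) and Mrps (small subunit) with a number. They were chosen by symbol alone, as every entry of the deposited tables named Mrpl or Mrps followed by a number and at most 1 letter, with pseudogene names left out. This gave 76 of 33894 named entries, 47 Mrpl and 29 Mrps. They were measured by bulk RNA sequencing of haematopoietic stem cells from mouse bone marrow, sorted by flow cytometry for Sca1 and high c-Kit and against lineage markers, CD34 and Flt3. All mice were 8 weeks old, and each library was made from 6K cells with Smart-seq2, a full-length method that does not mark strand in its standard form. WT libraries (n = 2) came from mice labelled wild type with no further allele given. dKO libraries (n = 3) came from mice with floxed Wnt co-receptor genes (Lrp5 fl/fl and, likewise, Lrp6 fl/fl) and the Vav-cre transgene, whose promoter is active across blood cells. Cre is named for the dKO group only, so its presence and the loss of the 2 genes cannot be told apart. Whether the libraries of a group stem from different mice is not labelled, and p-values therefore describe the spread between libraries, which may be technical.

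Mitochondria carry their own small genome, and its messenger RNAs, all for subunits of the respiratory chain and the ATP synthase, are translated by a dedicated ribosome. The ribosomal RNAs of that particle are transcribed from mitochondrial DNA, whereas every one of its proteins is encoded in the nucleus, made in the cytosol and imported. Some of its proteins have a counterpart in bacterial ribosomes and others are found in mitochondria only. Haematopoietic stem cells are known for low reliance on oxidative phosphorylation and for needing mitochondrial function when they leave quiescence and differentiate.

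Library totals ran from 16028512 counts (dKO replicate 2) to 28027458 (WT replicate 2), with 12894 to 16098 genes detected. dKO replicate 2 stood apart, its correlations with the other libraries across genes being at most 0.851 and those among the others at least 0.883. Counts over the whole gene did not show lower Lrp6 in the libraries labelled dKO. WT replicates 1 and 2 held 660 and 232 Lrp6 counts, the 3 dKO replicates 790, 260 and 767. For Lrp5 the totals were 7 and 32 against 37, 2 and 71. The deleted exons were not counted separately, so these totals do not check the genotype, and directions below are between libraries labelled dKO and WT.

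WT replicate 2 also differed from WT replicate 1 in markers of cell type. The 9 granulocyte progenitor markers, all with counts in all 5 libraries, summed to 42780 CPM (counts scaled to library size, with TMM factors) in WT replicate 2. The sum was 6529 in WT replicate 1 and 11246 to 15921 in dKO. Mpo, the myeloperoxidase of granule precursors, stood at 21486 CPM in WT replicate 2, 3447 in WT replicate 1 and 6031 to 9684 in dKO. The 12 stem cell markers, all detected in all libraries, summed to 1209 and 763 CPM in WT and 1481 to 1573 in dKO. Every dKO value lay above both WT values for 5 of 12, against 13.7% of all genes. Other marker lists differed between libraries as well. The 7 mast cell and basophil markers summed to 274 and 453 CPM in WT and 465 to 1153 in dKO. For 6 of 7, every dKO value lay above both WT values, against 13.7% of all genes. The 9 B lineage markers summed to 174 and 116 CPM in WT and 137 to 383 in dKO, so the groups overlapped in the sum. Of 8 tested, 7 had a fitted log2 fold change (dKO over WT) above 0, and 4 had every dKO value above both WT values. The 6 megakaryocyte markers summed to 64.7 and 58.1 CPM in WT and 82.4 to 118 in dKO. All 5 tested were above 0, 3 of them with every dKO value above both WT values, and Gp6 had 0 counts throughout. Of all 13696 genes tested, 7147 were above 0. The 10 erythroid markers summed to 142 and 167 CPM in WT and 208 to 248 in dKO. Only 5 of these markers had a fold change above 0 and 5 were below, with a median of 0.13, and 2 had every dKO value above both WT values. Among the 10 markers Car1, a carbonic anhydrase, stood at 6.57 and 6.45 CPM in WT and 58.2 to 69.9 in dKO. It had the smallest adjusted p of all genes tested, 0.178 in edgeR's quasi-likelihood test. The 8 T and NK cell markers summed to 708 and 1883 CPM in WT and 566 to 697 in dKO, nearly all from Nkg7 (704 and 1881 CPM in WT), while Cd3e had 0 counts throughout and Cd3g had 178 counts in dKO replicate 2. The 6 stromal and endothelial markers summed to 125 and 96.6 CPM in WT and 69.5 to 137 in dKO, mostly from Pecam1. Lepr had 0 counts throughout, and Cxcl12 counts were 3 and 25 (WT) against 248, 246 and 38 (dKO).

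The sort gate genes were detected in all libraries. Flt3, sorted against, had 238 and 116 CPM in WT and 338, 300 and 360 in dKO, and Kit 441 and 347 in WT and 699, 842 and 572 in dKO. Flt3 and Kit had every dKO value above WT, and neither passed the test. Cd34, also sorted against, had 1212 and 761 CPM in WT and 946, 968 and 1086 in dKO, where the groups overlapped. In bulk RNA, fewer cells of a type and less RNA per cell cannot be told apart.

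The promoters of 67 of the 76 genes could be matched by symbol in a RefSeq table on GRCm38.p6, a window of 250 bases before to 50 after each start site (73 windows, since some genes have more than 1). Motifs of 5 factors known for control of nuclear genes of mitochondria were searched on both strands. The following 4 windows belong to genes that are described below, 2 with lower and 2 with higher fitted values in dKO, and show the motif types found. Capitals mark the motifs (YY1 in Mrpl36, ETS and SP1 in Mrpl18, the NRF1 core in Mrpl9, and SP1 at 4 places in Mrps6, the first 2 overlapping). They lie on chr13:73330759-73331058 (plus strand), chr17:12916042-12916341 (minus), chr3:94443086-94443385 (plus) and chr16:92058086-92058385 (plus), in that order.
Mrpl36: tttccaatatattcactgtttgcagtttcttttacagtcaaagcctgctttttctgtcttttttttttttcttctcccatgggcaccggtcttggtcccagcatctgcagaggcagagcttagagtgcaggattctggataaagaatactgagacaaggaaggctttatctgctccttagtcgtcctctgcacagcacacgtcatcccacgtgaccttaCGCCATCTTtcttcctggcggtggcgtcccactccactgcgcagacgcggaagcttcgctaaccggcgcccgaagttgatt
Mrpl18: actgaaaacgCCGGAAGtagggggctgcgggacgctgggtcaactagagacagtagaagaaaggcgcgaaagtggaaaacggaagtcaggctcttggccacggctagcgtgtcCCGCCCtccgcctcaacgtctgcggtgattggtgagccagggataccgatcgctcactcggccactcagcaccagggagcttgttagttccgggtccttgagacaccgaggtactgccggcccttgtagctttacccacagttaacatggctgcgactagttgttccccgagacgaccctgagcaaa
Mrpl9: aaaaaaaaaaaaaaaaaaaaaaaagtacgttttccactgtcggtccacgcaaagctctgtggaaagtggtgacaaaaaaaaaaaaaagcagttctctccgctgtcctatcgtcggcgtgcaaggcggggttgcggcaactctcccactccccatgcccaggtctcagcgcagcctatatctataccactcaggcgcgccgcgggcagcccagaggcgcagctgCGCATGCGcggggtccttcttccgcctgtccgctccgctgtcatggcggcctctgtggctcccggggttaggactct
Mrps6: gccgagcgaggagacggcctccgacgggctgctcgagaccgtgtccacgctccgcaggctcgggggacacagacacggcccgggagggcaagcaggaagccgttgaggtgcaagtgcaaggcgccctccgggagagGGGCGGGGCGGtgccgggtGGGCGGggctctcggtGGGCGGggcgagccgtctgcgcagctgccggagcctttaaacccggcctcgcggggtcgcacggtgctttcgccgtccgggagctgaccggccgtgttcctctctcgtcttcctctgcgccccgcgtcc
The YY1 motif of Mrpl36 began at position -31 and the NRF1 core of Mrpl9 at -27 from the start site. In Mrpl18 the ETS motif began at -240 and the SP1 motif at -137, and in Mrps6 the SP1 motifs began at -114, -109, -95 and -79.

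Among all 67 matched genes, the ETS motif CCGGAAG, bound by GABPA among others, was present in 35.8%, against 19.7% of the 9192 tested genes in the table and 9.93% of all 27025 genes in it. The NRF1 core CGCATGCG was present in 10.4%, against 4.36% and 2.07%, and the YY1 motif AAGATGGCG in 11.9%, against 3.51% and 1.64%. The SP1 motif GGGCGG was present in 49.3%, against 67.3% and 38.2%, and the ERR motif TCAAGGTCA in none, against 0.337% and 0.466%. Matches are counts of letters in these windows. The median fitted log2 difference between dKO and WT was -0.57 for 23 tested genes with the ETS motif and -0.61 for 43 without it, -0.67 for 8 with the YY1 motif and -0.57 for 58 without, and -0.45 for 7 with the NRF1 core and -0.58 for 59 without.

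For 23 of the 67 genes (34.3%) the window overlapped that of a gene on the opposite strand, against 19.0% of tested genes and 11.9% of all genes in the table. Mrps11 and Mrpl46, 1 protein of each subunit, face each other in this way. Of the partners that are no Mrp gene, 18 were tested, with a median log2 difference of -0.18 and 11 below 0. Of all genes tested, 47.8% were below 0. The lowest was the Mrpl27 partner Eme1 at -1.30. The Mrpl18 partner Tcp1, a subunit of the cytosolic chaperonin, was at -0.74, and the Mrpl47 partner Ndufb5, a complex I subunit, at -0.66. In the other direction, the Mrpl14 partner Tmem63b was at 0.80 and the Mrpl21 partner Ighmbp2 at 0.45. The partners named were chosen after their values were seen.

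Levels of the genes relative to each other were read from TPM, a transcript share corrected for transcript length. Over the 75 genes with counts, the mean TPM of the 5 libraries had a median of 126, with quartiles of 72.0 and 178. Of these genes, 47 stood above 100. The highest was Mrpl42, a large-subunit protein found in mitochondria only, with 725 and 676 TPM in WT and 470, 438 and 572 in dKO. It was followed by Mrpl33 (mean 391 TPM), Mrpl28 (372), Mrpl54 (323) and Mrpl36 (265), all of the large subunit. Pooled over the 5 libraries, the values overlapped between each of these genes and the next in the order. Within each library, Mrpl42 was the highest Mrp gene. The lowest of the tested genes were Mrpl1, a stalk protein (36.3), Mrpl47 (36.3) and Mrps25 (33.8), so the level per length spanned 17.0-fold from Mrpl42 to Mrps25.

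Mrpl53 was lowest of all, with 0 counts in every library but 14.3 and 14.7 TPM in WT and 14.8, 12.8 and 15.7 in dKO. In GENCODE M21, 88.0% of its exonic bases are shared with 2 other genes, the protein-coding Gm42688 on the same strand, which matches it over 419 bases, and the antisense Ccdc142os. Gm42688 itself held 16 and 6 counts (WT) and 61, 105 and 0 (dKO). Mrpl53 could not be tested, so all comparisons between groups are over 75 genes. For these, counts ran from 271 to 7826 per library. In the same annotation, 14 of the genes have a near-identical copy elsewhere (95% identity over 300 bases or more), mostly a pseudogene, and 18 share 10% or more of their exonic bases with another gene. The sources used here do not say how reads of such stretches were counted, and values of those genes are uncertain to that extent.

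The comparison of dKO with WT asks which transcripts differ in stem cells labelled as lacking the 2 Wnt co-receptors. Most Mrp transcripts had a lower value in dKO, but no single gene passed the test. The fitted log2 fold change was below 0 for 72 of the 75 genes (96%), against 47.8% of all 13696 genes tested. Its median was -0.57 (quartiles -0.75 and -0.36), against 0.04 over all genes, which puts the median gene at 67.2% of its WT level. With edgeR's quasi-likelihood test and Benjamini-Hochberg adjustment, 0 of 13696 genes (0%) and 0 Mrp genes passed an adjusted p of 0.05, and the smallest adjusted p of an Mrp gene was 0.430. At an unadjusted p under 0.05, 32 of 75 genes (42.7%) had a lower value, against 5.19% of all genes, and 0 a higher one, against 4.94%. DESeq2 called 245 genes, and 3 of its 91 lower calls (0.664% of genes tested) were Mrp genes.

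Every dKO value lay below both WT values for 57 of 75 genes (76%), against 15.6% of all genes. Every dKO value lay above both for 0 Mrp genes, against 13.7%. With RLE or upper quartile scaling, 72 of 75 genes again had a fold change below 0. The 75 genes share their libraries and do not count as independent observations of the groups.

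**Figure D1:**
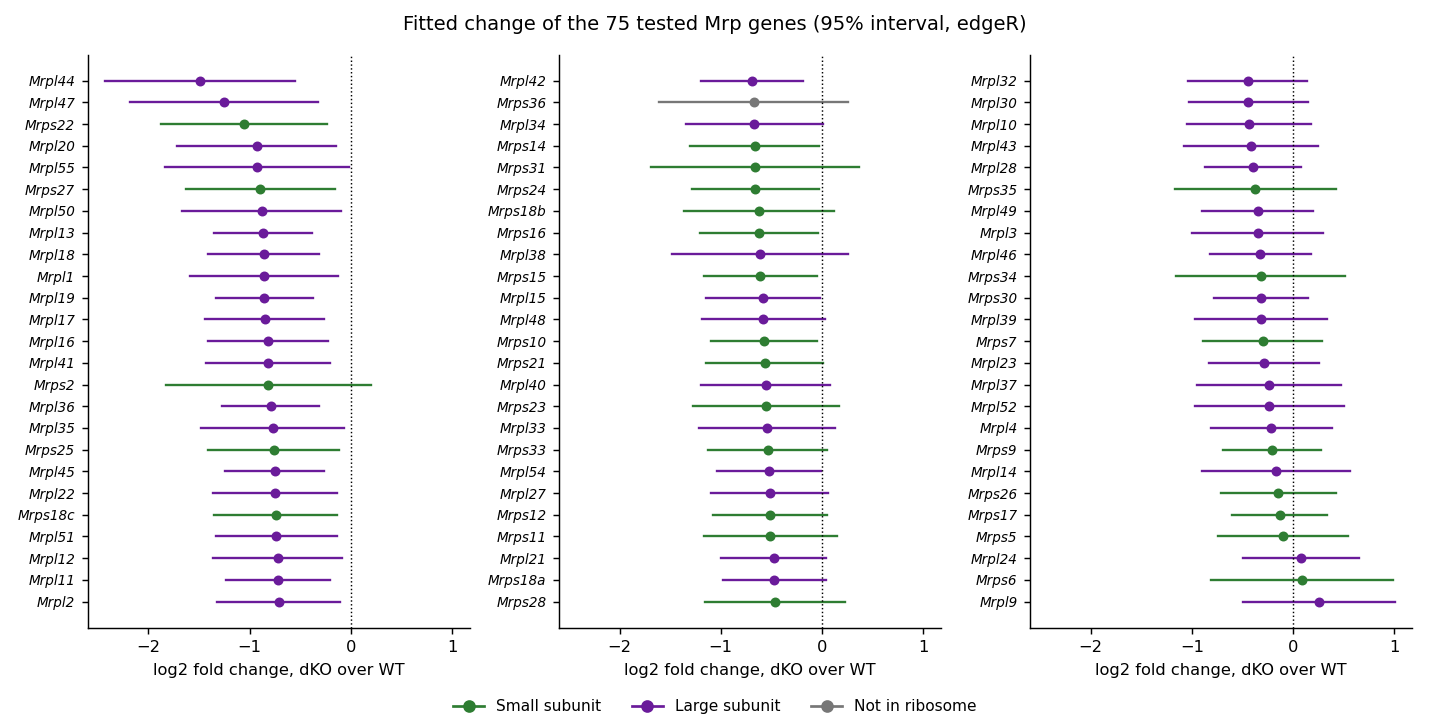
Fitted log2 fold change (dKO over WT) of each tested Mrp gene with its 95% interval from edgeR, coloured by subunit and ordered from -1.49 (Mrpl44) to 0.25 (Mrpl9). The points of 72 genes lie left of 0, and the intervals of 32 do not reach it.

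The 2 subunits had similar medians. The large subunit, counting Mrps18a and Mrps30, whose proteins sit in it despite their names, had 48 tested genes, 46 below 0, with a median of -0.58. In the small subunit, 25 of 26 were below 0, with a median of -0.56. Among proteins with a bacterial counterpart the median was -0.69 over 30 large-subunit genes and -0.54 over 16 small-subunit genes. Among those found in mitochondria only it was -0.54 over 18 and -0.59 over 10. The ratio of summed TPM of the large to the small subunit was 2.53 and 2.61 in WT and 2.40, 2.66 and 2.45 in dKO, so the groups overlapped in it.

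The 6 genes with the smallest p all encode large-subunit proteins. Mrpl13, which has a bacterial counterpart, had 136 and 150 CPM in WT (143 ± 9.84, SD, n = 2) and 82.4, 79.8 and 73.0 in dKO (78.4 ± 4.89, SD, n = 3). All 3 dKO libraries lay below both WT libraries, with a log2 fold change of -0.87 (SE 0.21). Its adjusted p was 0.430 with edgeR's quasi-likelihood test and Benjamini-Hochberg adjustment and 0.0222 with DESeq2.

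Mrpl19 also has a bacterial counterpart. It had 147 and 189 CPM in WT and 92.9, 95 and 91.6 in dKO, groups that did not overlap, with a log2 fold change of -0.85 (SE 0.21). Its adjusted p was 0.430 with edgeR's quasi-likelihood test and 0.0351 with DESeq2, with Benjamini-Hochberg adjustment in both. In M21, 36.0% of its exonic bases are shared with Gcfc2 on the opposite strand, which had at most 159 counts in a library, against 1572 to 4730 for Mrpl19.

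Mrpl44, a protein with a ribonuclease III-like fold whose loss in humans causes cardiomyopathy, had the lowest fold change of the group. It had 87.0 and 133 CPM in WT and 57.2, 22.5 and 37.9 in dKO, with a log2 fold change of -1.49 (SE 0.40). dKO replicate 2 was lowest. The adjusted p was 0.434 with edgeR's quasi-likelihood test and 0.0450 with DESeq2, both with Benjamini-Hochberg adjustment.

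The other 3 showed the same order of groups. Mrpl36 had 164 and 208 CPM in WT and 99.2, 116 and 108 in dKO, with a log2 fold change of -0.79 (SE 0.21). Mrpl18, a protein of the central protuberance with a part in the import of ribosomal RNA in humans, had 141 and 205 CPM in WT and 90.1, 89.1 and 107 in dKO, with -0.86 (SE 0.24), or -0.57 without WT replicate 2. Mrpl45, which anchors the ribosome near the exit tunnel to the inner membrane, had 147 and 188 CPM in WT and 102, 90.9 and 104 in dKO, with -0.75 (SE 0.21). No dKO value of these genes reached a WT value.

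Only 3 genes had a fold change above 0, all within their spread. Mrpl9 had 38.9 and 55.5 CPM in WT and 65.5, 42.4 and 61.0 in dKO, with a log2 fold change of 0.25 (SE 0.32). Mrps6 had 18.3 and 22.3 CPM in WT and 20.3, 23.5 and 20.9 in dKO, with 0.09 (SE 0.39). Mrpl24 had 63.8 and 70.1 CPM in WT and 62.0, 75.3 and 74.4 in dKO, with 0.08 (SE 0.25). The dKO values overlapped WT in all 3. With single libraries left out, Mrpl9 lay between 0.016 and 0.53, Mrpl24 between 0.0028 and 0.16, and Mrps6 between -0.056 and 0.23. The low end of each range came without WT replicate 1. The high end came on leaving out WT replicate 2 for Mrpl9 and Mrps6 and dKO replicate 1 for Mrpl24.

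The 3 paralogues Mrps18a, Mrps18b and Mrps18c, which descend from 1 bacterial protein and take different places in the particle, all had every dKO value below both WT values. Mrps18c, in the small subunit, had 132 and 158 CPM in WT and 82.2, 67.6 and 109 in dKO, with a log2 fold change of -0.74. Mrps18b, also in the small subunit, had 39.9 and 47.2 CPM in WT and 27.7, 32.4 and 24.6 in dKO, with -0.62. Mrps18a had 113 and 132 CPM in WT and 87.9, 97.6 and 80.3 in dKO, with -0.47.

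Mrpl12, the stalk protein that also binds the mitochondrial RNA polymerase, had 65.1 and 81.9 CPM in WT and 42.8, 51.1 and 39.8 in dKO (log2 fold change -0.72). Mrps12, at the decoding site, had 74.7 and 92.7 CPM in WT and 58.6, 55.6 and 61.8 in dKO (-0.51). Mrps30 had 117 and 123 CPM in WT and 95.5, 95.3 and 98.3 in dKO (-0.32), and its dKO values lay in a narrow range below WT. Mrps36 carries the family's name but is a part of the oxoglutarate dehydrogenase complex. It had 44.6 and 63.7 CPM in WT and 39.6, 19.7 and 42.3 in dKO (-0.67). Its fold change was -0.40 without WT replicate 2 and also -0.40 without dKO replicate 2.

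Summed over the 76 genes, the level was 7612 and 9496 CPM in WT (8554 ± 1332, SD, n = 2) and 5715, 5333 and 6327 in dKO (5792 ± 502, SD, n = 3). In TPM the sums were 11563 and 12277 in WT (11920 ± 505) and 9516, 9191 and 9705 in dKO (9471 ± 260). On both scales all dKO libraries lay below both WT libraries.

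**Figure D2:**
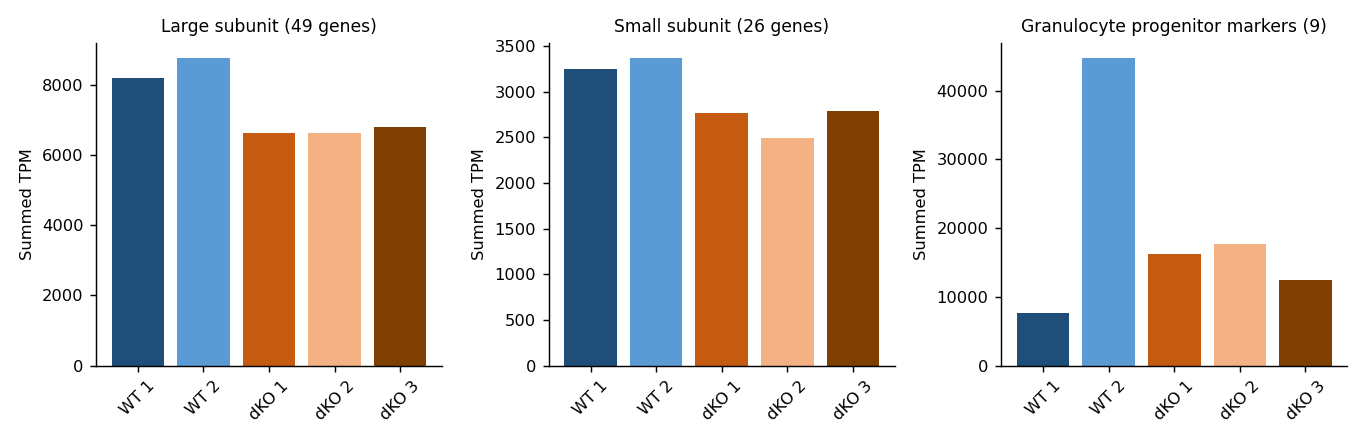
Summed TPM per library of the large-subunit genes, the small-subunit genes and 9 granulocyte progenitor markers (bars from 0, 1 bar per library). The dKO libraries lie below both WT libraries for both subunits, while the granulocyte markers are highest in WT replicate 2.

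The WT libraries differed from each other. WT replicate 2 was the highest of the 5 libraries for 67 of 75 Mrp genes (89.3%, against 22.7% of all genes), and dKO replicate 2 the lowest for 43 (57.3%, against 33.1%). WT replicate 1 lay below WT replicate 2 for 71 of 75 genes (48.7% of all genes), with a median log2 ratio of -0.31. Against WT replicate 1, dKO replicates 1, 2 and 3 were lower for 67, 68 and 61 genes, with median log2 ratios of -0.41, -0.55 and -0.27. Of all genes, 48.4%, 54% and 49.9% were lower in these pairs. The gap between the WT libraries was therefore larger than that between dKO replicate 3 and WT replicate 1.

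Mrpl33, Mrpl3 and Mrpl51 had the largest gap between the WT libraries, and all were higher in WT replicate 2. Mrpl33 had 121 and 212 CPM in WT and 103, 99.4 and 140 in dKO, and its log2 fold change of -0.54 became -0.90 when WT replicate 1 was left out and -0.085 when WT replicate 2 was. Mrpl3 had 78.4 and 136 CPM in WT and 79.4, 84.3 and 89.0 in dKO, all dKO values above WT replicate 1. Its log2 fold change of -0.35 went to -0.70 when WT replicate 1 was left out and to 0.10 when WT replicate 2 was. Mrpl51 had 176 and 305 CPM in WT and 129, 150 and 155 in dKO, below both, and went from -0.73 to -0.29 without WT replicate 2.

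Without WT replicate 2, the library high in granulocyte markers, the median was -0.40 (0.07 over all genes) and 67 of 75 genes were below 0. Then 58 of 75 genes had every dKO value below WT replicate 1, against 25.7% of all genes, and 2 had an unadjusted p under 0.05 and a lower value, against 0.930%. The part of the granulocyte, stem cell, mast cell, B lineage, erythroid and megakaryocyte markers in the Mrp difference was not tested.

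**Figure D3:**
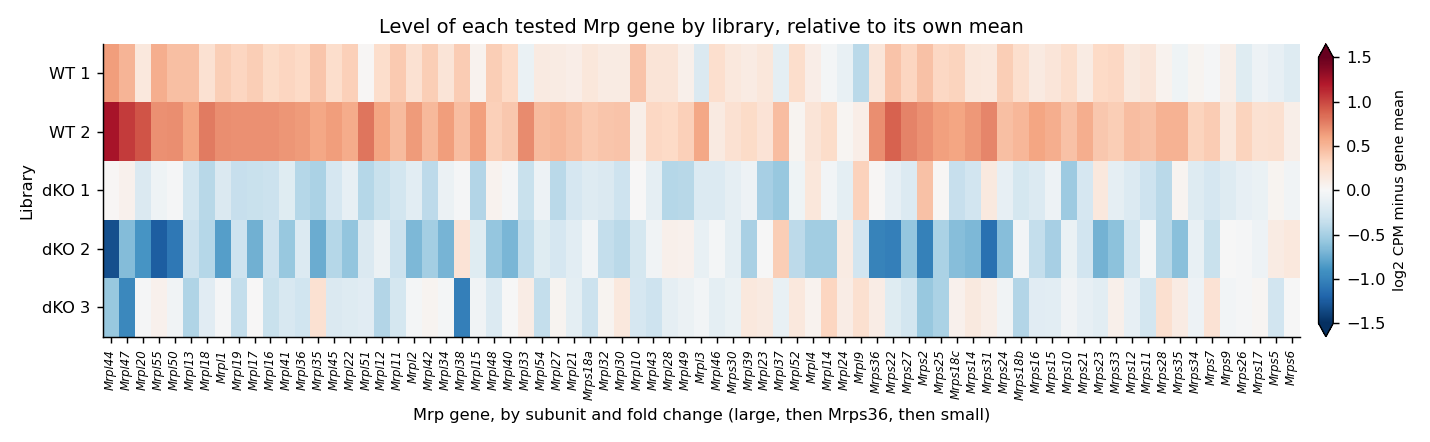
Log2 CPM of each of the 75 tested Mrp genes minus its mean over the 5 libraries (colour), large subunit first, then Mrps36, then small subunit. WT replicate 2 is above the mean for nearly all genes and dKO replicate 2 is the lowest for 43.

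The difference was smaller in TPM than in counts. On log2(TPM + 1), which understates changes of low genes, 65 of 75 genes were below 0 with a median of -0.34, and the median of all genes moved from 0.04 to 0.14. Relative to all genes the Mrp median was -0.61 in counts and -0.48 in TPM. Every dKO value was below both WT values for 35 of 75 genes in TPM, against 8.81% of all genes. At an unadjusted p under 0.05, 3 genes had a lower value on log2(TPM + 1), against 1.80% of all genes, and 2 on log2(TPM + 0.1), against 1.56%, where counts gave 32. The sign differed between the measures for 7 genes, Mrpl14, Mrpl37, Mrpl48, Mrps17, Mrps21, Mrps23 and Mrps26.

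Mrpl48 differed most. It had 103 and 102 CPM in WT and 82.8, 53.4 and 69.2 in dKO, a fold change of -0.58, but 37.4 and 54.7 TPM in WT and 61.3, 81.5 and 104 in dKO, a difference of 0.82. Its pseudogene Mrpl48-ps, which matches it over 636 bases, held 287 and 241 counts (WT) and 204, 111 and 194 (dKO). Mrps12 had 31.3 and 112 TPM in WT and 29.2, 65.5 and 56.5 in dKO, so its groups overlapped in TPM and not in CPM. Mrpl48 was named after its values were seen.

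The mitochondrial ribosome also holds proteins with other names. All 7 that were tested had a value below 0, with a median of -0.57, and 6 (85.7%) had every dKO value below both WT values, against 15.6% of all genes. Chchd1 was at -0.66 with 122 and 156 CPM in WT and 84.5, 72.3 and 106 in dKO. Ptcd3 was at -0.58. Dap3, a small-subunit GTP-binding protein, was at -0.09 with 120 and 137 CPM in WT and 116, 122 and 125 in dKO, so its groups overlapped.

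The RNAs and enzymes that work with the particle had medians nearer 0. The ribosomal RNAs mt-Rnr1 and mt-Rnr2 were at -0.10 (SE 0.42) and -0.02 (SE 0.32), with dKO libraries on both sides of WT. Levels of mt-Rnr1 were 149 and 146 CPM in WT and 137, 65.6 and 209 in dKO. Those of mt-Rnr2 were 476 and 450 in WT and 477, 274 and 624 in dKO. The 16 tested mitochondrially encoded genes had a median of -0.00 with 8 below 0. Their median log2 CPM relative to each gene's mean was -0.49 in dKO replicate 2 and 0.40 in dKO replicate 3. These values near 0 therefore do not show unchanged levels. The 12 translation factors had a median of -0.10 with 7 below 0 (58.3%, against 47.8% of all genes), and 2 had every dKO value below WT (16.7%, against 15.6%), both near the share of all genes. Tsfm, the exchange factor of the elongation factor Tu, was the lowest of them with 62.1 and 69.0 CPM in WT and 38.0, 38.1 and 27.4 in dKO. The 21 assembly and RNA modification genes had a median of -0.25, with 17 below 0 (81.0%) and 5 with every dKO value below WT (23.8%, against 15.6% of all genes). Among the 17 tRNA synthetases the median was -0.26, with 14 below 0 (82.4%, against 47.8% of all genes). Every dKO value lay below WT for 4 of them (23.5%, against 15.6%) and above WT for 1. Rars2, for arginine, had 177 and 166 CPM in WT and 100, 93.0 and 119 in dKO.

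Of 9 factors that act on nuclear genes of mitochondria, 3 were below 0 and the median was 0.13. Nrf1 was at 0.24, Gabpa at 0.30, Gabpb1 at -0.36 and Yy1 at 0.13. The values farthest from 0 were those of Esrra, which encodes a factor of the ERR family, and Ppargc1b, a coactivator. Esrra was at -1.37, with 5.78 and 5.41 CPM in WT and 0.995, 2.36 and 3.15 in dKO, all below WT. Ppargc1b was at 1.70, with 3.57 and 1.96 CPM in WT and 6.38, 17.8 and 2.89 in dKO, where the groups overlapped. Myc, with 536 and 562 CPM in WT and 655, 608 and 488 in dKO, was at 0.09. None had an unadjusted p under 0.05.

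Other large protein families of ribosomes and mitochondria also had mostly negative fold changes. The 77 tested cytosolic ribosomal protein genes had a median of -0.34 with 74 below 0, 43 with every dKO value below WT (55.8%, against 15.6% of all genes) and 10 with a lower value at an unadjusted p under 0.05 (13.0%, against 5.19%). The 80 respiratory chain genes had a median of -0.48 with 75 below 0, 52 with every dKO value below WT (65%) and 30 with a lower value at an unadjusted p under 0.05 (37.5%). As a share of the summed TPM of cytosolic ribosomal proteins, the Mrp genes made up 11.8% and 12.7% in WT and 9.47%, 11.2% and 10.2% in dKO. As a share of the respiratory chain they made up 31.1% and 29.1% in WT and 29.5%, 29.0% and 28.1% in dKO, where the groups overlapped. Whether the Mrp genes differ from these families was not tested.

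**Figure D4:**
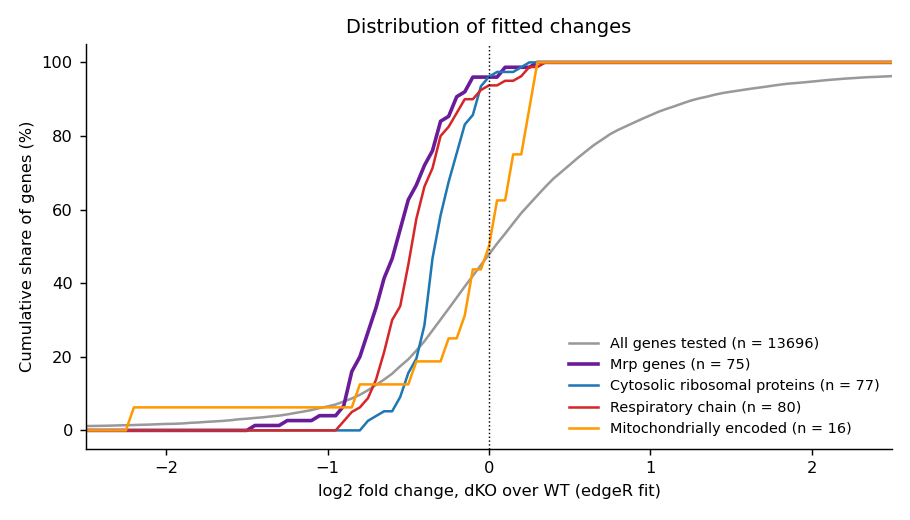
Cumulative share of genes (%) up to each fitted log2 fold change (dKO over WT) for the Mrp genes, 3 other families and all genes tested. The Mrp median (-0.57) lies left of the medians of the cytosolic ribosomal proteins (-0.34) and of all genes (0.04), whose curves cross the Mrp curve toward the ends.

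Mrp transcripts were shorter than others, with a median length of 1807 against 3179 bases, and their median GC content was 49.8% against 49.6%. With a trend on both removed over all genes, the Mrp median went from -0.58 to -0.47 over the 74 genes with a value, with 71 below 0. Across these 74 genes the fold change had a Pearson r of -0.03 with length, 0.14 with GC content and 0.02 with level, as a description over genes that share the same 5 libraries.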

How the data were processed

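The deposited files give raw counts per gene and, separately, TPM for each of the 5 libraries. Per the submitters' processing notes, the build was mm9 and the tools were TopHat2 2.1.1, HTSeq, RSEM 1.2.31, DESeq2, Trimmomatic and FastQC 0.11.5. The sources used here do not say which tool made which values. Smart-seq2 amplifies RNA from few cells, which adds noise between libraries. In each file 30 of 33924 entries named no gene. They held 0.216% to 0.269% of counts and were left out.

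The count test was edgeR 4.0.16 under R 4.3.3 (TMM, filterByExpr, robust quasi-likelihood, Benjamini-Hochberg over 13696 genes), with all 5 libraries and no covariate. The biological coefficient of variation, from the common dispersion over all genes tested, was 67.9%. At 0 counts, a library allows up to 0.107 to 0.187 CPM (floor of 3 counts, counting error only). The test was also run on simulated counts with known changes, with results not given here. Alternatives were DESeq2 1.42.0, limma 3.58.1 (voom with sample weights, or log2 TPM plus 1 or 0.1), other scalings and filters, the replicate number as a block, each library left out, and removal of a GC and length trend. Leaving out single libraries for the count below WT was added after seeing the data. The count of genes with a fold change below 0 was planned for the main fit only.

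The members and lists were chosen with earlier results of these data known. Genes named are the 6 Mrp genes with the smallest p per direction, the 5 highest and 3 lowest by TPM, the 3 with the largest gap between WT libraries, a preset group (Mrps18a, Mrps18b, Mrps18c, Mrpl12, Mrps12, Mrps30, Mrps36), and genes at 0 counts. For each other list the 2 genes with the smallest p were planned, and not all of these are named. Further genes of those lists, such as Mpo, Cd34, Dap3, Myc and Lepr, were named outside that rule. List entries Noa1, Malsu1, Tefm, Slirp, Mrpl57 and Mrpl58 matched no symbol. Because the files use mm9, GENCODE M21 (GRCm38) served only for length, GC content, shared exons and copies, with 75 of 76 genes matched by identifier.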

Additional observations from a re-analysis of the deposited data

How the results depend on the processing

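The Mrp median stayed below 0 under all alternatives run. It was -0.34 on log2(TPM + 1), -0.35 on log2(TPM + 0.1), and -0.70 to -0.40 with single libraries left out, the value nearest 0 being without WT replicate 2. The number of all genes called went from 0 to 245 with DESeq2, 8 with no filter on low counts, 1 with the replicate block and 0 to 5 with single libraries left out (5 without WT replicate 1). Mrp genes called went from 0 to 3 with DESeq2 and were 0 in each other fit. Genes with every dKO value below WT numbered 57, against 35 with either TPM pseudocount and 57 to 70 with single libraries left out. The share of all genes was 15.6% in counts, 8.81% in TPM and 20.4% to 27.5% with single libraries left out, 27.5% being without WT replicate 1, where 70 was reached. With single libraries left out, Mrps6 lay between -0.056 (without WT replicate 1) and 0.23, and Mrpl3 between -0.70 and 0.10 (without WT replicate 2). The causes were not tested. Of 350 values of 25 named genes under alternatives, 348 kept their direction. Fits with a single WT library take its spread from the dKO libraries.

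Replicate numbers 1 and 2 are shared between the groups, but the labels do not say that they mark a litter or day. The differences between replicates 1 and 2 of each group correlated at 0.04 across genes. Whether libraries of the same number share a litter or day was not tested. With the replicate block the Mrp median was -0.64 with 71 of 75 below 0, and with the GC and length trend removed as well -0.50. Replicate number 3 occurs in dKO only, so its block takes up dKO replicate 3 entirely. The block fit therefore compares the groups within replicates 1 and 2 only. Leaving dKO replicate 3 out without a block gave a median of -0.65, also with 71 below 0. 2 WT libraries and a biological coefficient of variation of 67.9% limit what single genes can show.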

Other observations

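Genes for import into mitochondria and for outer membrane channels had a median log2 fold change of -0.65 over 20 tested, 19 below 0 and 14 (70%) with every dKO value below both WT values, against 15.6% of all genes. Timm8a1, a chaperone of the intermembrane space, had 114 and 144 CPM in WT and 69.2, 59.8 and 77.2 in dKO. Tomm5, a small subunit of the outer membrane translocase, had 170 and 272 CPM in WT and 118, 108 and 128 in dKO. In edgeR's quasi-likelihood test, adjusted after Benjamini-Hochberg, the smallest adjusted p of these genes was 0.430.

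The 13 tested genes of the tricarboxylic acid cycle had a median of -0.29, with 11 below 0 and 6 (46.2%, against 15.6% of all genes) with every dKO value below WT. Idh3a, a subunit of isocitrate dehydrogenase, had 291 and 421 CPM in WT and 182, 193 and 219 in dKO. Sucla2, a subunit of succinyl-CoA ligase, had 282 and 256 CPM in WT and 186, 138 and 186 in dKO.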
